A study of Mus musculus with 4 samples.

Results

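The subject is a set of 35 genes for the structural parts of the sperm tail, out of 55450 genes in the files. They were chosen by name and function, with earlier results of these data known; the rule itself uses no measured value. By role they are 5 genes of the fibrous sheath (Akap3, Akap4, Fscb, Ropn1, Ropn1l), 6 of the outer dense fibres and the mitochondrial sheath (Odf1, Odf2, Odf3, Odf4, Oaz3, Smcp), 5 tektins (Tekt1 to Tekt5), 5 of the central apparatus and radial spokes (Spag6, Spag16, Spag17, Rsph1, Rsph9), 6 of the dynein arms (Dnah1, Dnah2, Dnah8, Dnah17, Dnaic1, Dnali1), 3 linked to the axoneme (Cfap43, Cfap44, Cfap69) and 5 of tail assembly, manchette and transport (Spag4, Meig1, Spata18, Spem1, Ift88). All 35 were found in the files. Testes from mice fed a high-fat (HFD) or a normal diet (ND) were dissociated and profiled by droplet single-cell RNA sequencing, with 2 libraries per diet. The question put to the genes was whether their transcripts differed between the diets in each of 5 germ-cell stages, from early spermatocytes to elongating spermatids. Strain, age, diet composition and duration, and the number of mice behind a library are not given in the sources used here, so p-values measure only the spread between these libraries, which may be technical.

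The sperm tail is built around an axoneme, a ring of doublet microtubules with dynein motor arms, radial spokes and a central apparatus. Over most of its length the axoneme is wrapped by outer dense fibres, and further by a mitochondrial sheath in the midpiece and a fibrous sheath in the principal piece. Spermatocytes begin to transcribe axoneme genes before the meiotic divisions. Transcripts for sheath and fibre proteins accumulate mainly in spermatids, where transcription stops as protamines compact the nucleus and stored transcripts are translated later. Known regulators of this programme include CREM, which binds cyclic AMP response elements, the RFX and FOXJ1 factors of ciliated cells, and MYBL1 of spermatocytes.

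The windows around the transcription start sites were read from RefSeq (GRCm38.p6, 250 bases before to 50 bases after each start), which held 32 of the 35 members. Rsph1, Odf1 and Oaz3 had no window. The letters of 5 motifs were searched on both strands. TGACGTCA, the full cyclic AMP response element, was found in 1 member (Spag4), or 3.12% of those with a window, and in 2.03% of all genes with a window. TGACGT, which lies within it, was found in 4 members (Spag4, Spata18, Tekt1, Dnaic1), or 12.5%, and in 8.37% of all genes. GTTGCC, a core of the X-box bound by RFX factors, was found in 10 members, or 31.2%, and in 14.1% of all genes. GTAAACA, a forkhead motif, was found in 4 members (12.5%) and in 4.05% of all genes, and AACGGT, a MYB motif, in 3 members (9.38%) and in 3.87%. A match is a description of letters and not of a bound site. The stretches below are shown because they belong to members whose diet ratios are described further on; the capitals mark the motif in the direction of the gene, and a motif on the other strand appears as its reverse complement.
Spag4, chr2:156065165-156065194, plus strand: ctggctcccagTGACGTCAcgggcgctctg
Spata18, chr5:73651311-73651340, plus strand: cagccggccgccACGTCAaggtttgtttaa
Dnaic1, chr4:41569814-41569843, plus strand: ctacaagggcgcgaggacccacaACGTCAg
Odf3, chr7:140847839-140847868, plus strand: cctttttagggaGTTGCCtggcacagacac
Spag6, chr2:18698973-18699002, plus strand: cgattccgactgGTTGCCcaggagtgtggg
Tekt2, chr4:126325767-126325796, minus strand: cgcagctgcgcgGTTGCCtggctaagctga
Spag16, chr1:69826855-69826884, plus strand: actaGGCAACgcGTTGCCgtagtaactgcg
Dnah17, chr11:118129402-118129431, minus strand: caggggtacccTGTTTACctgatgaccctg
Tekt3, chr11:63061474-63061503, plus strand: aatattatttgTGTTTACtgaaaacttaaa
The 250 bases before the start of Akap3, a gene that is lower in HFD in elongating spermatid-like cells, held none of the 5 motifs.
Akap3, chr6:126852848-126853097, plus strand: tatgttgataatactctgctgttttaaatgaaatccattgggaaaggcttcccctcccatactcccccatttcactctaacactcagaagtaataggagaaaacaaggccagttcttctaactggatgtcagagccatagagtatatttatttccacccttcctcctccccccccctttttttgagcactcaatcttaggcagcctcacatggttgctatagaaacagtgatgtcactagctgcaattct

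The 4 libraries held 13561 to 15290 barcodes and 143748262 to 154221188 unique molecular identifiers (UMIs, counted transcript molecules), and 54879 cells passed the filters. Pairs of libraries shared 42 to 65 barcodes. Cells were clustered without the tail genes, and clusters were named from marker genes: 3057 early spermatocyte-like, 4233 pachytene-like, 5156 dividing spermatocyte-like, 12853 round spermatid-like and 8126 elongating spermatid-like cells. A further 17625 cells stayed unnamed (36.41% and 32.47% of the HFD libraries, 30.09% and 29.83% of the ND libraries). Spermatogonia-like cells numbered 226, with 48 in HFD 1. That is under the minimum of 50 cells per library, so the diets were not tested in them. Round spermatid-like cells made up 20.8% ± 0.178 of cells in HFD and 25.9% ± 0.286 in ND (mean ± SD, n = 2 libraries), and pachytene-like cells 8.96% ± 1.15 and 6.54% ± 0.305. The early spermatocyte-like cells also carried pachytene markers, at 6437 CPM in sum (CPM, the usual depth-scaled UMI count: UMIs of a gene over all UMIs of the sample, set to a common total), so their name is a loose one. Dividing spermatocyte-like cells carried pachytene markers too, at 6966 CPM against 6899 in pachytene-like cells. Their division markers summed to 2936 CPM against 1475, so this name is loose as well. Tail transcripts were also counted in cells that do not make a tail. The summed level of the 35 members was 5614 CPM in Leydig-like cells and 14810 to 18730 CPM in the macrophage-like, fibroblast- and peritubular-like and lymphocyte-like cells. These 4 classes, of 326 to 1168 cells each, served as the measure of background: a member was read as above background in a stage where its UMIs per cell exceeded the highest of the 4 classes in every library. Sertoli-like cells, where the 35 members summed to 23080 CPM, were not used for this, since Smcp alone reached 4364 CPM in them.

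The members reached their highest CPM at different stages. Of the 35, 14 were highest in a spermatocyte stage and 21 in a spermatid stage. Dnah1, Dnah2, Dnah8, Dnah17, Rsph1 and Spag17 were highest in pachytene-like cells, and these are motor chains of the dynein arms, a radial spoke head protein and a central apparatus protein. Dnah8, a heavy chain of the outer arm in sperm, stood at 1170 CPM in pachytene-like, 717 in dividing, 175 in round and 142 CPM in elongating spermatid-like cells. Odf4, Spag16, Rsph9, Dnaic1, Cfap43, Cfap44 and Meig1 were highest in dividing spermatocyte-like cells, which also carried pachytene markers. Ift88, a subunit of the intraflagellar transport train, was the earliest, with 161 CPM in early spermatocyte-like and 14.8 CPM in elongating cells.

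The spermatid-stage members split again. Akap3, Ropn1l, Odf3, Tekt1 to Tekt4, Spag6, Dnali1 and Cfap69 were highest in round spermatid-like cells, and Akap4, Fscb, Ropn1, Odf1, Odf2, Oaz3, Smcp, Tekt5, Spag4, Spata18 and Spem1 in elongating ones. Smcp, a cysteine-rich protein of the mitochondrial sheath, rose from 101 CPM in pachytene-like cells to 2153 in round and 5747 in elongating cells. Spem1, needed for shedding of sperm cytoplasm, ran from 10.99 to 594 CPM between the same ends, and Spata18, a mitochondrial protein, from 29.5 to 1210 CPM. Some members hardly varied: Meig1, a manchette cargo protein, peaked at 6952 CPM, 1.31 times its lowest stage, and Ropn1l, a partner of AKAP3, at 3983 CPM, 1.81 times its lowest. For 30 of the 35 members the stage of highest CPM was the same in all 4 libraries. The exceptions were Akap3, Spag4 and Tekt5, which were highest in round cells in some libraries and in elongating cells in others, Cfap43, which was highest in pachytene-like cells in both ND libraries, and Ropn1l, which was highest in dividing cells in HFD 2. The stages were defined from other genes of the same cells, so these levels are a description without a test. In elongating cells the 35 members, of which Smcp, Meig1 and Odf2 were the most abundant, summed to 28510 and 28590 CPM in the HFD libraries and 28600 and 28930 CPM in the ND libraries.

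**Figure D1:**
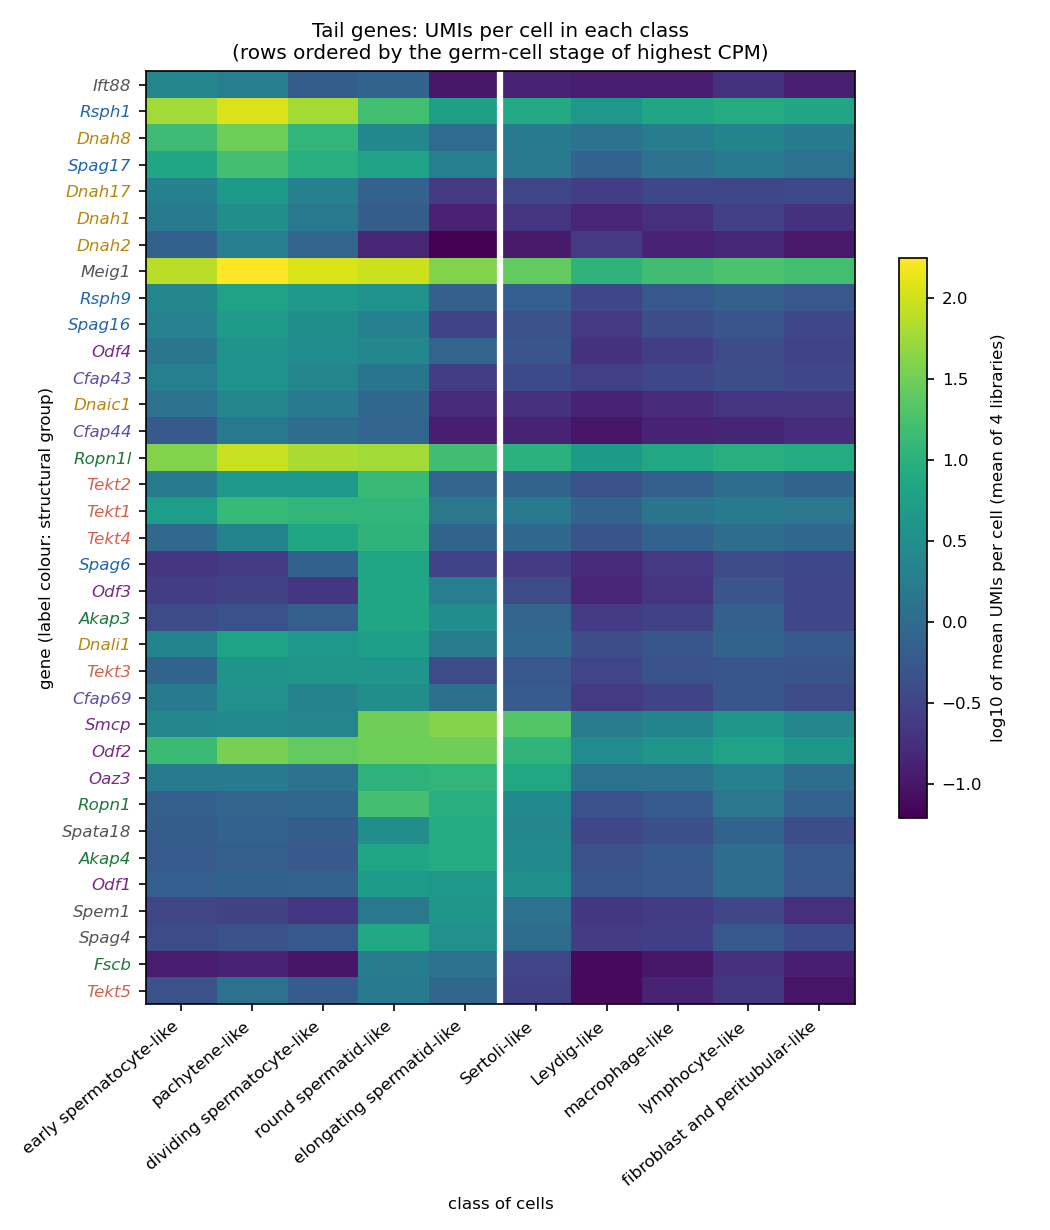
Mean UMIs per cell over the 4 libraries (colour, log10 scale) of each of the 35 tail genes (rows, ordered by the stage of highest CPM, label colour by role) in 5 germ-cell stages and, right of the white line, 5 somatic-like classes. Rsph1 holds 116 UMIs per cell in pachytene-like cells and 5.69 in elongating cells, below the 8.38 of lymphocyte-like cells, while Akap3 holds 6.56 in round cells and 0.461 in pachytene-like cells.

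Measured against the somatic-like background, 22 of 35 members were above it in early spermatocyte-like, 23 in pachytene-like, 24 in dividing and 33 in round spermatid-like cells. In elongating cells 19 were above it. The members at or below it in elongating cells were Tekt1 to Tekt4, Spag6, Spag16, Rsph1, Rsph9, Dnah1, Dnah2, Dnah8, Dnah17, Dnaic1, Cfap43, Cfap44 and Ift88. Rsph1 fell from 116 UMIs per cell in pachytene-like to 5.69 in elongating cells, where lymphocyte-like cells held 8.38. In spermatocytes the late genes were the ones at background. Akap3 gave 0.461 UMIs per cell in pachytene-like cells and 0.709 in lymphocyte-like cells, against 6.56 in round cells. Below, "at background" means only that a member was not above these somatic-like classes in every library; whether RNA from other cells entered its diet ratio was not tested.

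In the sum of all kept cells, 23 of 35 members passed the test between the diets (65.7%), 9 higher and 14 lower in HFD. The test was edgeR's quasi-likelihood test with Benjamini-Hochberg adjustment over all genes at a threshold of 0.05. It called 34.4% of all genes tested (16% higher, 18.4% lower) and 60.6% of those with at least 20 CPM. The members' share lies near the latter, a set not matched further to the members' levels. The direction followed the stage of highest level. Of the 14 members highest in spermatocytes, 9 were higher in HFD and 0 lower, with a median log2 ratio of 0.16. Of the 21 highest in spermatids, 0 were higher and 14 lower, with a median of -0.17. Dnah8 stood at 650.3 and 663.8 CPM in HFD and at 525.2 and 519.1 in ND (log2 ratio 0.33, SE 0.036, edgeR adjusted p = 1.52e-05). Spag6, a central apparatus protein, stood at 164.6 and 155.0 CPM in HFD and at 212.7 and 217.3 in ND (log2 ratio -0.43, SE 0.041, edgeR adjusted p = 5.59e-06). For both genes the 2 diets did not overlap, as for 82.9% of the members. The same held for 67.5% of all genes tested and 84.7% of those with at least 20 CPM. In a sum over cells, fewer cells of a stage and less RNA per cell cannot be told apart.

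Those whole-testis ratios were recomputed after every cluster was given the same share of UMIs in all 4 libraries. Then 0 of 35 members passed at the adjusted threshold (edgeR), against 1.28% of all genes, and the ratios lay between -0.14 and 0.14. At an unadjusted edgeR p under 0.05 there were 17 members, and the share of all genes at that limit is not given here. The median became 0.076 for the members highest in spermatocytes and -0.027 for those highest in spermatids. Markers of the stages themselves moved in the plain sums: 11 of 11 elongating markers and 12 of 14 round markers were lower in HFD (medians -0.24 and -0.34), and 11 of 13 pachytene markers were higher (median 0.17). Of the other cell types, 8 of 8 Leydig markers, 8 of 11 Sertoli markers and 6 of 12 spermatogonia markers were lower (medians -0.77, -0.46 and -0.30).

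**Figure D2:**
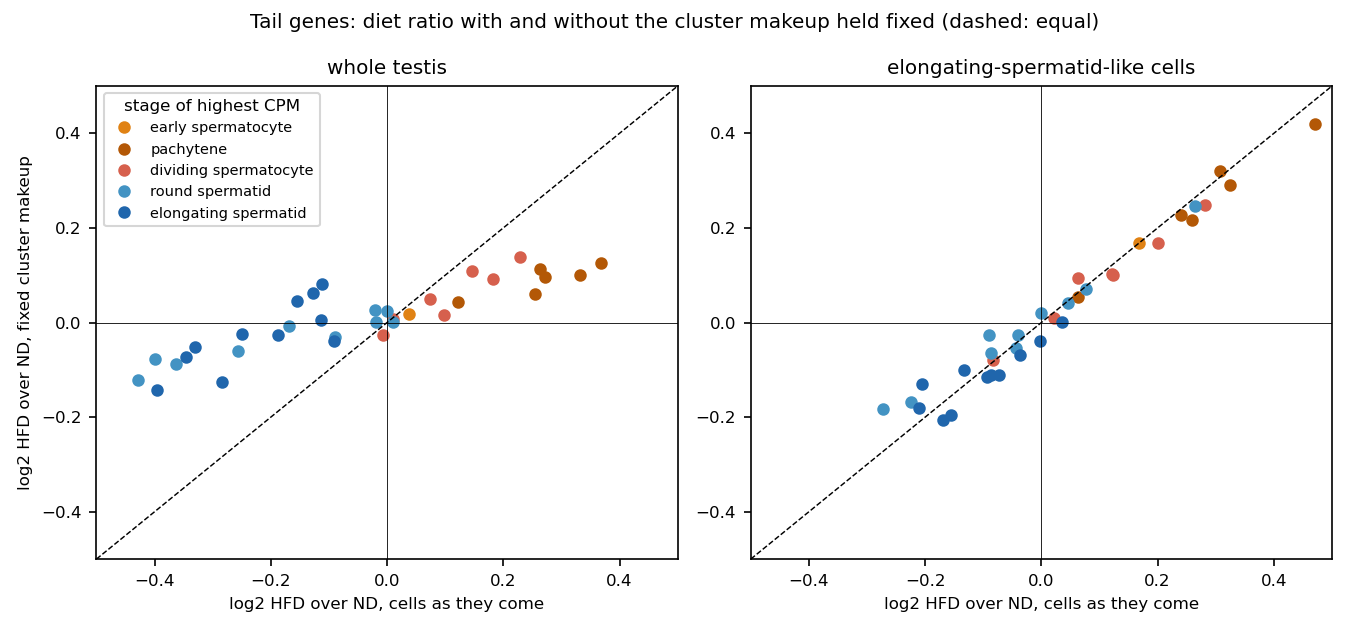
Log2 ratio of HFD over ND of each tail gene (points, coloured by the stage of highest CPM) as summed (x axis) and with the share of each cluster held equal across the 4 libraries (y axis), for the whole testis (left) and elongating spermatid-like cells (right); the dashed line marks equal values. In the whole testis the ratios run from -0.43 to 0.37 as summed and from -0.14 to 0.14 with equal shares, while in elongating cells they run from -0.27 to 0.47 and from -0.207 to 0.419.

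In elongating spermatid-like cells, 6 members were lower in HFD (Akap3, Ropn1, Odf3, Tekt5, Spag4, Spata18) and 5 were higher (Tekt3, Rsph1, Dnah2, Dnah8, Dnah17). That is 31.4% of the members, where edgeR called 5.99% of all genes tested (3.15% higher, 2.84% lower). Among genes with at least 20 CPM it called 32.3% of members and 16% of all. The 6 lower genes were all above background in these cells and the 5 higher genes were not. The median ratio over the 35 members was 0.00, but the direction followed the stage of highest level, as in the whole testis. Among the 14 members highest in spermatocytes, 4 were higher in HFD and 0 lower, with a median of 0.184. Among the 21 highest in spermatids, 1 was higher and 6 lower, with a median of -0.087. With equal cluster shares these medians were 0.168 and -0.068. The members are described by role below, and role was not tested apart from the stage of highest level. Both HFD libraries lay on one side of both ND libraries for 26 members (74.3%), as they did for 50% of all genes and for 66.2% of those with at least 20 CPM.

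Of the fibrous sheath, 2 of 5 members were lower in elongating cells and none was higher. Akap3 (ENSMUSG00000030344, chr6:126853098-126874308), a scaffold that anchors protein kinase A in the sheath, stood at 415.8 and 395.1 CPM in HFD and at 468.6 and 479.1 CPM in ND. Both HFD libraries were below both ND libraries, and the log2 ratio was -0.225 (SE 0.041, edgeR adjusted p = 0.00147). Ropn1, which binds AKAP3 through a docking domain like that of protein kinase A, stood at 1301 and 1268 CPM in HFD and at 1419 and 1399 in ND. Its ratio was -0.13 (SE 0.034, edgeR adjusted p = 0.0187). Ropn1l, the most abundant of the group in these cells, had 2119 and 2166 CPM in HFD and 2280 and 2281 in ND. Its groups did not overlap, but its ratio of -0.09 missed the threshold (SE 0.032, edgeR adjusted p = 0.0883). Akap4, the main structural protein of the sheath, and Fscb, a sheath phosphoprotein, had ratios of -0.094 and -0.156 (edgeR adjusted p = 0.102 and 0.059).

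Of the dense fibre and mitochondrial sheath genes, 1 of 6 passed in elongating cells. Odf3 (ENSMUSG00000025482, chr7:140847805-140851018), a small protein of the outer dense fibre family, stood at 241.3 and 239.8 CPM in HFD and at 289.4 and 291.9 in ND. Its log2 ratio of -0.27 was the lowest of the 35 members here (SE 0.044, edgeR adjusted p = 0.000316). The other members of this group had ratios of -0.087 to 0.036 and did not pass. Smcp had 5687 and 5684 CPM in HFD and 5998 and 5664 in ND, with overlapping groups and a ratio of -0.036 (SE 0.030). Odf2, a protein shared by dense fibres and centrosomes, had 4351 and 4277 CPM in HFD and 4518 and 4645 in ND, a ratio of -0.087 (SE 0.030, edgeR adjusted p = 0.0774). Odf1, Odf4 and Oaz3 had ratios of 0.036, 0.021 and -0.003. Their standard errors were 0.030 to 0.054.

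Among the genes of tail assembly, 2 of 5 were lower in elongating cells. Spag4 (ENSMUSG00000038180, chr2:156065175-156070617), a nuclear envelope protein that links the tail and manchette to the nucleus, stood at 463.5 and 445.9 CPM in HFD and at 522.8 and 529.9 in ND. Its ratio was -0.21 (SE 0.040, edgeR adjusted p = 0.00192). Spata18 (ENSMUSG00000029155, chr5:73651379-73679512) stood at 1155 and 1130 CPM in HFD and at 1280 and 1290 in ND, a ratio of -0.17 (SE 0.034, edgeR adjusted p = 0.00363). For both, each HFD library was below each ND library. Meig1 had 5573, 5266, 5349 and 6135 CPM in HFD 1, HFD 2, ND 1 and ND 2, with overlap, and Spem1 had a ratio of -0.073 (edgeR adjusted p = 0.301).

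**Figure D3:**
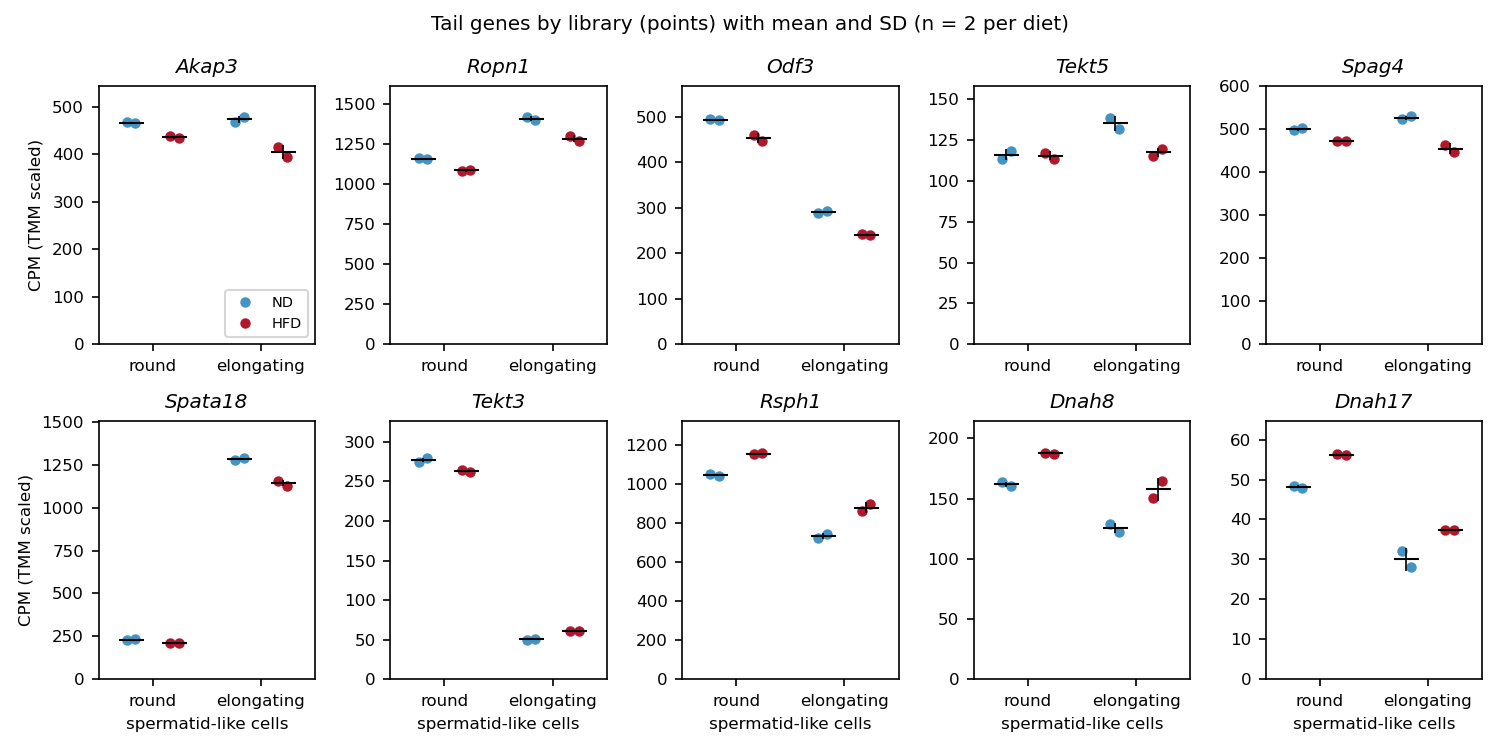
TMM-scaled CPM of the 10 tail genes called in elongating cells at 20 CPM or more, in each library (points; ND blue, HFD red) of round and elongating spermatid-like cells, with the mean (horizontal line) and SD (vertical line, n = 2 per diet). In elongating spermatid-like cells Akap3, Odf3, Spag4 and Spata18 lie lower in both HFD libraries than in both ND libraries.

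The tektins, which form filaments in the wall of the doublet microtubules, had 1 lower member above background and 1 higher member at background in elongating cells. Tekt5, the 1 tektin whose own level was highest at this stage, stood at 115.4 and 119.4 CPM in HFD and at 138.4 and 132.0 in ND, a ratio of -0.205 (SE 0.053, edgeR adjusted p = 0.019). Tekt3 stood at 60.87 and 60.33 CPM in HFD and at 49.96 and 50.95 in ND, a ratio of 0.265 (SE 0.065, edgeR adjusted p = 0.014), but at background. It gave 0.392 UMIs per cell in elongating cells and 0.525 in lymphocyte-like cells. Tekt1, with 208.3 and 209.3 CPM in HFD and 196.1 and 199.8 in ND, had a ratio of 0.077 that did not pass (SE 0.046, edgeR adjusted p = 0.368). Tekt2 and Tekt4 had ratios of 0.00 and 0.045.

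The higher axoneme genes in elongating cells were at background. Rsph1 (ENSMUSG00000024033, chr17:31255019-31277383) stood at 859.5 and 897.8 CPM in HFD and at 724.1 and 744.5 in ND, with a ratio of 0.26 (SE 0.037, edgeR adjusted p = 9.62e-05). In Leydig-like cells Rsph1 had 5.84 and 4.68 UMIs per cell in HFD and 3.20 and 3.63 in ND. The diets did not overlap in fibroblast- and peritubular-like cells either, but they did in macrophage-like and lymphocyte-like cells. With equal cluster shares the ratio in elongating cells was 0.216 (edgeR adjusted p = 0.00169). Dnah8 (ENSMUSG00000033826, chr17:30624354-30877365) stood at 150.7 and 164.3 CPM in HFD and at 128.6 and 122.6 in ND, a ratio of 0.325 (SE 0.054, edgeR adjusted p = 0.000447). It had 1.77 and 1.33 UMIs per Leydig-like cell in HFD and 0.973 and 1.07 in ND, and of the 4 comparison classes its diets overlapped in macrophage-like cells. The part of these levels in the ratios of Rsph1 and Dnah8 was not tested. Dnah17, another heavy chain of the outer arm, stood at 37.27 and 37.29 CPM in HFD and at 32.09 and 28.05 in ND (ratio 0.31, SE 0.081, edgeR adjusted p = 0.022). Dnah2, an inner arm heavy chain below 20 CPM, had a ratio of 0.47 (SE 0.140). The axoneme genes named next did not pass in these cells. Spag17, of the central apparatus, had 277.1 and 287.4 CPM in HFD and 270.6 and 269.6 in ND, a ratio of 0.063 that did not pass although the diets did not overlap (SE 0.044, edgeR adjusted p = 0.447). Cfap69, also of the central apparatus, had 168.8 and 158.0 CPM in HFD and 169.0 and 167.8 in ND, with overlap and a ratio of -0.043 (SE 0.050). Dnali1, a light intermediate chain of the inner arm, had 245.2 and 244.2 CPM in HFD and 255.7 and 247.4 in ND, without overlap and with a ratio of -0.04 (SE 0.045). Cfap43, a tether protein at background, had 37.20 and 42.03 CPM in HFD and 36.21 and 36.39 in ND (ratio 0.12).

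Other genes of these cells moved beside the members. In elongating cells 8 of 11 elongating markers were lower in HFD (median -0.12), 0 of 14 round markers passed (median -0.144), and 4 of 14 dividing and 4 of 13 pachytene markers were higher (medians 0.22 and 0.16). With each cluster at an equal share in all libraries, 7 members were lower and 4 higher in elongating cells, against 3.07% of all genes. Of these 11, 8 had also passed as summed (Akap3, Odf3, Spag4, Spata18, Rsph1, Dnah8, Dnah17 and Tekt3), and Akap4, Fscb and Odf2 were added at -0.115, -0.195 and -0.11. Tekt5, Ropn1 and Dnah2 were no longer called, at -0.129, -0.10 and 0.419 (edgeR adjusted p = 0.173, 0.0916 and 0.103). Without HFD 2 the members called were Odf3 and Rsph1, against 11 with it. Leaving out each library in turn, Odf3 kept its call with ratios of -0.28 to -0.27, and Akap3, Spag4 and Spata18 had ratios between -0.27 and -0.16 and lost their calls without HFD 2. DESeq2 called 7 members in these cells and 306 of all genes, and edgeR with doublets kept called 6 and 384, where the count over all genes was 880 as summed and 161 without HFD 2.

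**Figure D4:**
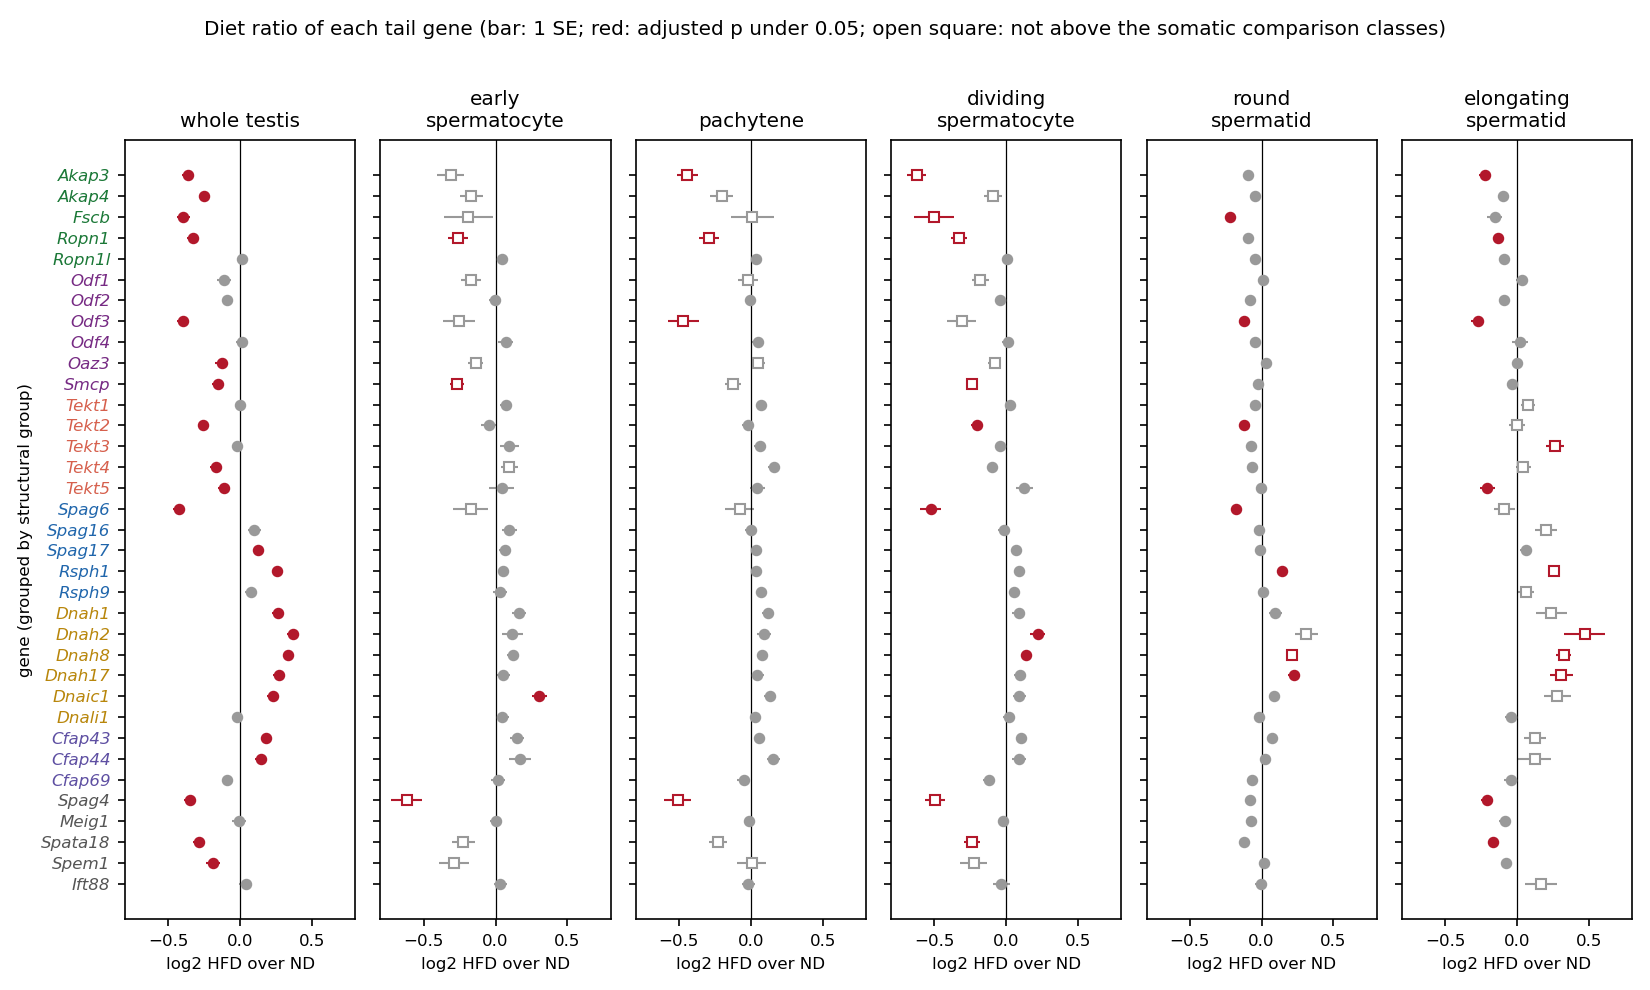
Log2 ratio of HFD over ND for each tail gene (rows, grouped by role) in the whole testis and in each of the 5 germ-cell stages, with bars of 1 SE; red marks an adjusted p under 0.05 and open squares mark genes not above the somatic-like background. In elongating cells the 6 red points left of 0 are filled circles and the 5 right of 0 are open squares.

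In round spermatid-like cells the ratios were smaller, from -0.22 to 0.31. Lower in HFD were Fscb, Odf3, Tekt2 and Spag6, each above background, and higher were Rsph1, Dnah17 and Dnah8, of which Dnah8 was not above it in all libraries. Rsph1 and Dnah17 held on average only 1.82 and 1.72 times the UMIs per cell of the highest comparison class. For Fscb, Odf3, Tekt2 and Spag6 this was 9.82, 13.15, 11.32 and 15.9 times. These 7 are 20% of the members, where edgeR called 1.62% of all genes tested (0.786% higher, 0.832% lower). Among genes with at least 20 CPM it called 20.6% of members and 4.22% of all. The diets did not overlap for 25 members (71.4%), nor for 47.4% of all genes and 60.5% of those with at least 20 CPM. Spag6 stood at 450.7 and 449.1 CPM in HFD and at 505.1 and 512.1 in ND, a ratio of -0.18 (SE 0.026, edgeR adjusted p = 0.0114). Spag6 has a near-identical copy, Spag6l, and its reads could be split between them in counting, so its value is uncertain. Fscb stood at 109.2 and 111.4 CPM in HFD and at 125.6 and 131.0 in ND, a ratio of -0.22 (SE 0.034, edgeR adjusted p = 0.0154). Odf3 stood at 460.2 and 445.6 CPM in HFD and at 493.8 and 493.6 in ND (ratio -0.12, SE 0.027, edgeR adjusted p = 0.0481). Odf3 was thus lower in HFD in both spermatid stages.

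Tekt2 in round cells stood at 903.7 and 893.9 CPM in HFD and at 990.3 and 964.6 in ND, a ratio of -0.12 (SE 0.025, edgeR adjusted p = 0.0417). Rsph1 stood at 1152 and 1159 CPM in HFD and at 1052 and 1044 in ND, a ratio of 0.14 (SE 0.024, edgeR adjusted p = 0.0205). Dnah17 stood at 56.32 and 56.25 CPM in HFD and at 48.47 and 47.93 in ND, a ratio of 0.22 (SE 0.038, edgeR adjusted p = 0.0219). Dnah8 stood at 188.0 and 187.0 CPM in HFD and at 163.4 and 160.1 in ND, a ratio of 0.21 (SE 0.030, edgeR adjusted p = 0.0104). For these 4 genes the diets did not overlap. Of the other sheath genes, Akap3 had a ratio of -0.097, Ropn1 of -0.093 and Akap4 of -0.045 (edgeR adjusted p = 0.081, 0.0714 and 0.411). These calls needed both HFD libraries, since 0 members were called without HFD 1 and 0 without HFD 2, while 17 were called without ND 1. The calls over all genes moved alike, from 321 with all libraries to 27, 18 and 2001. Without a filter on low counts 0 members and 9 of all genes were called. One round cluster, cluster 8, held 16.97% and 17.54% of round UMIs in HFD and 21.83% and 22.34% in ND. With equal cluster shares 2 members passed, Spag6 and Dnah8, against 0.338% of all genes. Dnah17, Fscb and Rsph1 then had ratios of 0.198, -0.172 and 0.114 (edgeR adjusted p = 0.06, 0.0648 and 0.0717), and Tekt2 and Odf3 of -0.095 and -0.077 (edgeR adjusted p = 0.149 and 0.242).

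The difference of the diet ratio between the 2 spermatid stages was tested directly, with the library as a term. It passed for 9 members (25.7%), where edgeR called 2.96% of all genes (2.3% higher in elongating cells, 0.664% lower). A share among genes with at least 20 CPM was not drawn up for this test. In elongating cells alone that share was 16%, against 5.99% of all genes. Of 170 other tail and cilium genes, 17 were higher and 2 lower (11.2%), with a median difference of 0.085 against 0.079 for the members. Tekt5, Odf3 and Spag4 were lower in HFD by more in elongating than in round cells, by -0.17, -0.12 and -0.10 on the log2 scale. Tekt4, Rsph1, Tekt2, Tekt1, Spag16 and Tekt3 had higher ratios in elongating than in round cells, by 0.14 to 0.365, and all 6 were at background in elongating cells. With equal cluster shares Tekt5 (-0.097), Odf3 (-0.082) and Spag4 (-0.101) lost the call (edgeR adjusted p = 0.401, 0.267 and 0.0511). The 4 members then called, Tekt1, Tekt2, Tekt3 and Rsph1, were all at background in elongating cells (2.3% of all genes called). Akap3 differed by -0.10 and missed the threshold (edgeR adjusted p = 0.0573), and Ropn1 and Spata18 differed by -0.013 and -0.023. Without the library term 1 member and 27 of all genes passed, against 558 with it, and the 4 omissions of a library left 1 to 5 members and 164 to 474 of all genes.

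In the spermatocyte stages most called members were late genes at background. In pachytene-like cells Akap3, Ropn1, Odf3 and Spag4 were lower in HFD (4 members or 11.4%, against 2.71% of all genes, 1.67% higher and 1.04% lower), at diet means of 9.23 to 34.9 CPM, and none was above background. Among genes with at least 20 CPM, 3.45% of members and 4.41% of all were called. The 4 calls became 0 without ND 1, without ND 2 or without a filter on low counts, where 0 of all genes were called, against 435. The axoneme genes that peak in these cells did not pass. Dnah8 stood at 1206 and 1198 CPM in HFD and at 1150 and 1132 in ND, a ratio of 0.075 (SE 0.033, edgeR adjusted p = 0.251), and Rsph1 had one of 0.035 (SE 0.031). Their groups did not overlap, as for 46.7% of all genes. In early spermatocyte-like cells Ropn1, Smcp and Spag4 were lower, again at background, and Dnaic1 was higher; together they are 11.4% of members, against 1.78% of all genes (0.792% higher, 0.99% lower). Among genes with at least 20 CPM the shares were 12.5% and 3.07%. Ropn1 lost its call with equal cluster shares (-0.24, edgeR adjusted p = 0.0929), and Smcp, Spag4 and Dnaic1 did not. The ratio of Smcp changed sign when cells were chosen by a gate on each cell's markers. In the same early cells 6 of 11 elongating markers (median -0.25) and 3 of 14 round markers (median -0.30) were lower, and in pachytene-like cells 3 of 11 and 6 of 14 were (medians -0.24 and -0.40); their part in these ratios was not tested. Dnaic1 (ENSMUSG00000061322, chr4:41569775-41638158), an intermediate chain of the outer dynein arm, stood at 94.42 and 94.26 CPM in HFD and at 76.06 and 76.63 in ND. Its ratio was 0.305 (SE 0.054, edgeR adjusted p = 0.00213), and its level was above background, with 1.26 UMIs per cell against 0.230 in the highest comparison class. It stayed called after each of the 4 libraries was left out and with equal cluster shares (0.292, edgeR adjusted p = 0.00677). It was not called with DESeq2 (ratio 0.309, adjusted p = 0.124), with cells chosen by a gate on each cell's markers (edgeR ratio 0.271, adjusted p = 0.10) or with at most 10% mitochondrial UMIs (edgeR ratio 0.073, adjusted p = 0.971). Exons of 12 members, among them Dnaic1, Tekt2, Spag6, Dnah8 and Dnah17, overlap those of a gene on the opposite strand. The strand setting of the counting is not given in the sources used here, so their values may hold reads of the partner. Exons of Cfap43 overlap those of Itprip and Gm22240 on the same strand, and the effect on its count was not tested.

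In dividing spermatocyte-like cells, Akap3, Fscb, Ropn1, Smcp, Tekt2, Spag6, Spag4 and Spata18 were lower in HFD and Dnah2 and Dnah8 higher. The 10 are 28.6% of members, against 6.98% of all genes (2.44% higher, 4.54% lower), and 4 of them were above background. Among genes with at least 20 CPM, 28.1% of members and 10.9% of all were called. Tekt2 stood at 251.0 and 246.9 CPM in HFD and at 295.6 and 278.0 in ND (ratio -0.20, SE 0.038, edgeR adjusted p = 0.00433). Spag6 stood at 41.18 and 34.05 CPM in HFD and at 55.54 and 52.92 in ND (ratio -0.525, SE 0.074, edgeR adjusted p = 0.000652). Both are highest in round spermatid-like cells. With tail genes kept in clustering, the ratios of Spag6, Spag4, Smcp and Spata18 in dividing cells changed sign. Dnah2 stood at 55.23 and 52.32 CPM in HFD and at 46.76 and 45.75 in ND (ratio 0.22, SE 0.055, edgeR adjusted p = 0.0265), and Dnah8 had a ratio of 0.14. Markers of round spermatids fell alongside, 12 of 14 with a median of -0.51, and their part in these values was not tested. The makeup differed too: a cluster with a median of 2801 UMIs per cell gave 22.17% and 20.06% of the stage's UMIs in HFD and 33.72% and 29.15% in ND. With equal cluster shares 0 members passed at the adjusted threshold (edgeR), against 0.166% of all genes. At an unadjusted edgeR p under 0.05 there were 10 members, and the share of all genes at that limit is not given here. The ratios became -0.082 for Spag6, -0.078 for Tekt2, 0.146 for Dnah2 and 0.082 for Dnah8. Tested singly, the cluster of 2801 UMIs had Akap4 and Dnah8 higher in HFD (0.494% of all genes called). The other dividing cluster had Akap3 lower (0.224%). Akap3 and Akap4 were at background in this stage.

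Single clusters within the spermatid stages were tested as well, a step chosen after seeing the data. The shares of all genes given for them are not limited to genes with at least 20 CPM. Along the ratio of elongating to round markers the round clusters ran 1, 8, 3, 10 and the elongating clusters 14, 19, 15, 12, 13. This order need not be 1 progression of cells. Clusters 19 and 12 shared leading genes such as Tnp1, Tnp2 and Cby3, at medians of 2424 and 7038 UMIs per cell. Clusters 15 and 13 shared Car2, Gm498 and Prm2, at medians of 2996 and 4914. Cluster 15 scored 0.26 for elongating markers, where the other elongating clusters scored 1.01 to 1.61. The level of some sheath genes did not run evenly along this order. Akap3 stood at 743.1 CPM in cluster 14, 268.2 in 19, 42.06 in 15, 411.0 in 12 and 55.55 in 13, and Odf3 followed the same pattern from 526.5 down to 28.28 and 25.91 in clusters 15 and 13. Akap4 and Odf2, by contrast, were highest in clusters 15 and 13. Cluster 12, with protamine and transition protein genes among its leading genes, had 7 lower members (Akap3, Akap4, Ropn1, Odf2, Odf3, Spag4, Spata18) and 2 higher (Rsph1, Dnah8), against 2.88% of all genes. Akap3 there stood at 391.3 and 343.2 CPM in HFD and at 461.8 and 466.0 in ND, a ratio of -0.33 (SE 0.060, edgeR adjusted p = 0.000717). In cluster 15, 5 members were lower (Akap4, Fscb, Oaz3, Smcp, Spata18) and 1 higher (Dnah8), against 3.14% of all genes. Spata18 stood there at 2429 and 2282 CPM in HFD and at 3090 and 2894 in ND, a ratio of -0.345 (SE 0.054, edgeR adjusted p = 1.09e-07). In cluster 13 the 1 member called was Spata18 at -0.30 (0.701% of all genes), and in cluster 14 it was Rsph1 at 0.26 (0.347%). In cluster 19 no member was called (0.193% of all genes). Of the round clusters, cluster 1 had 3 lower members (Fscb, Odf3, Spag6) and 1 higher (Dnah8), against 1.27% of all genes. Cluster 8 had 0 (0.193%), cluster 3 had Rsph1 higher (0.2%) and cluster 10 had Dnah17 higher (0.116%). Akap3 had a ratio of -0.078 in cluster 14 (edgeR adjusted p = 0.537); its difference from cluster 12 was not tested.

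**Figure D5:**
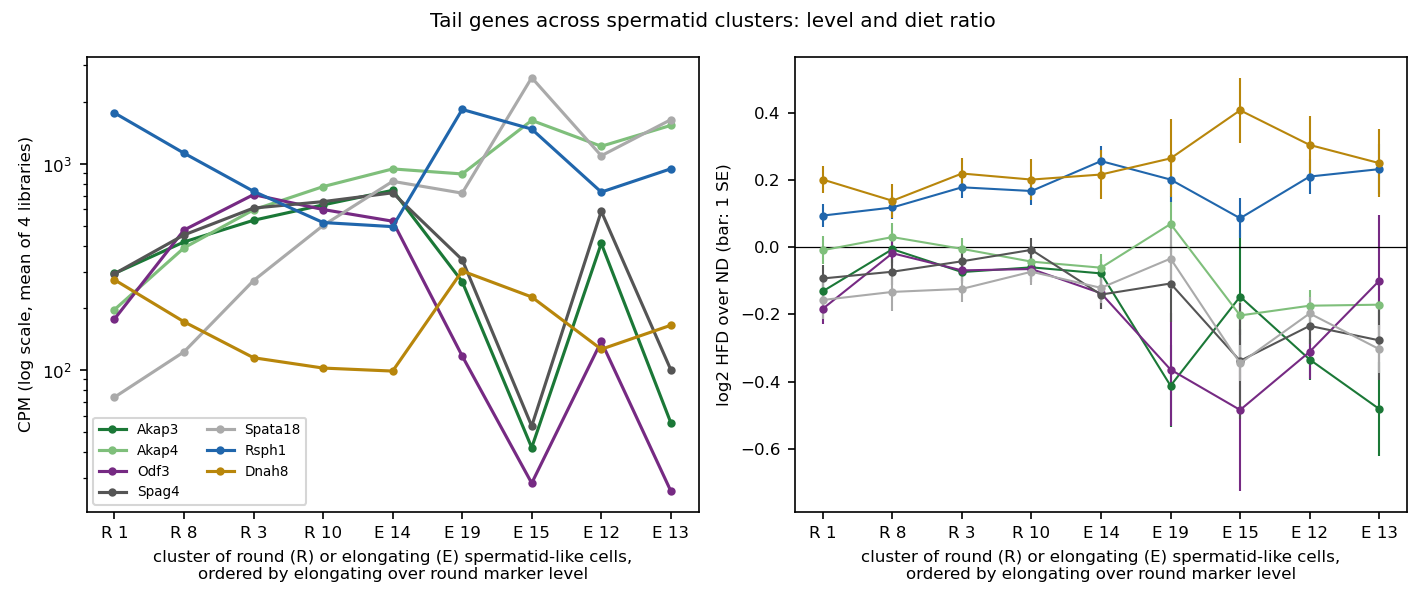
Mean CPM over the 4 libraries (left, log scale) and log2 ratio of HFD over ND with bars of 1 SE (right) of 7 tail genes in each cluster of round (R) and elongating (E) spermatid-like cells, ordered along the x axis by the ratio of elongating to round markers. Akap3, Odf3 and Spag4 drop in clusters 15 and 13 while Akap4 and Spata18 stay high, and the ratios of Rsph1 and Dnah8 are above 0 in every cluster shown.

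A list of 173 other tail and cilium genes, with regulators of tail genes and glycolysis enzymes of the sheath among them, was read the same way. Mybl1 and Tbpl1 are both on this list and among the pachytene markers. In elongating cells 16 of 169 tested were higher and 5 lower in HFD, against 3.15% of all genes higher and 2.84% lower. At 20 CPM or more, 16.7% of the list and 16% of all genes were called. The lower ones named by the rule were Tssk4, a testis kinase, with a ratio of -0.22, Cfap97d1 with -0.19 and Fhl5, a partner of CREM, with -0.17. The higher ones were Ccdc39, a ruler protein of the doublets, with 0.42, and Cfap65 and Spag1 with 0.40 each. In round cells, where 1.62% of all genes were called, 4 of 170 were higher (Spag1, Ccdc39 and Zmynd10 leading, at 0.25, 0.22 and 0.21) and 4 lower (Ift57, Sun5 and Dnaaf3 leading, at -0.16, -0.15 and -0.135). In dividing cells 3 of 170 were higher and 20 lower (13.5% called, against 6.98% of all genes). In pachytene-like cells 7 of 171 were higher and 6 lower (7.6% against 2.71%), and in early spermatocyte-like cells 7 of 168 were higher and 5 lower (7.14% against 1.78%). With the same minimum of 20 CPM the share of the list called was 5.37% in round (4.22% of all), 11.9% in dividing (10.9%), 6.82% in pachytene-like (4.41%) and 6.92% in early cells (3.07%). The whole-testis sums gave 59 higher and 47 lower of 172. At 20 CPM or more, 63.2% of the list and 60.6% of all genes were called there. Whether these genes were above the somatic-like background was not tested.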

How the data were processed

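Dissociated mouse testis was profiled with 10x 3′ chemistry in 4 libraries, 2 per diet. The deposited matrices hold raw UMI counts per gene and barcode, per the file headers, which name software version 3.0.2. The genome build was mm10, per the submitters' processing notes. The aligner is not given in the sources used here. All 55450 gene IDs matched GENCODE M21 (GRCm38).

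Barcodes under 200 genes or over 20% mitochondrial UMIs were dropped, as were doublets called by Scrublet (452 to 919 per library). Cells were clustered with scanpy 1.11.5 and Leiden at resolution 1 on 2000 variable genes, 30 components and 15 neighbours, leaving out all tail genes, and named from marker lists. Counts summed per library and stage were tested with edgeR 4.0.16 (filterByExpr, TMM, quasi-likelihood) in R 4.3.3, with Benjamini-Hochberg adjustment over all genes tested. SE is the log2 ratio's size over the square root of F. Diet values are CPM scaled with TMM, and levels across stages are plain CPM. UMIs tag transcript 3′ ends, so CPM is not per gene length.

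On simulated counts the test recovered 100% of changes of 0.5 log2 in round cells, 98% in elongating cells and 25% in the stage difference. Smaller changes were not simulated, so recovery at the size of the members' ratios is not known. Those ran from -0.218 to 0.312 in round cells and from -0.273 to 0.47 in elongating cells. The members, lists and rules were chosen with earlier results of these data known. In the spermatid stages full values are given for called members whose diets did not overlap (mean of at least 20 CPM, at most 8 per stage). They are also given for the 2 most abundant of each role in elongating cells. For the whole testis and the spermatocyte stages only some of the called members have full values. Of the other tail genes at most 3 per direction are named. The alternatives were no count filter, no TMM, DESeq2 1.42.0, cell filters, clustering, equal cluster shares, a replicate block and omission of each library.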

Additional observations from a re-analysis of the deposited data

Results flagged for a closer look

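The diet ratio differed between elongating and round spermatid-like cells for 9 tail genes, by a direct test of the difference with the library as a term (edgeR). Over all genes tested, with no limit to abundant ones, 2.96% were called. Of 170 other tail and cilium genes 17 were higher and 2 lower. The difference, elongating minus round, was -0.172 for Tekt5, -0.122 for Odf3 and -0.104 for Spag4, which were above the somatic-like level in both stages. It was 0.138 for Tekt4, 0.145 for Rsph1, 0.148 for Tekt2, 0.151 for Tekt1, 0.244 for Spag16 and 0.365 for Tekt3, which in elongating cells were not above that level. With equal cluster shares Tekt5 (-0.097), Odf3 (-0.082) and Spag4 (-0.101) were not called (edgeR adjusted p = 0.401, 0.267 and 0.0511), and the 4 members still called, Tekt1, Tekt2, Tekt3 and Rsph1, were not above that level in elongating cells. Tekt3 kept its call without each library in turn (0.36 to 0.37), while Odf3 and Tekt4 lost theirs in each of the 4 omissions. No group had enough libraries for a search for outlying samples.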

How the results depend on the processing

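With equal cluster shares the members called numbered 0 in the whole testis, 0 in dividing, 2 in round cells and 4 in the stage difference, and with DESeq2 0 in early, 2 in pachytene-like and 7 in elongating cells (6, 124 and 306 of all genes). Without a filter on low counts, 0 were called in pachytene-like and 0 in round cells (0 and 9 of all genes). The next 3 settings rebuild and rename clusters: doublets kept gave 6 in dividing and 6 in elongating cells (690 and 384 of all genes), a limit of 10% mitochondrial UMIs gave 0 in early, 14 in pachytene-like and 1 in dividing cells (0, 2534 and 24 of all genes, against 261, 435 and 1093), and tail genes kept in clustering gave 0 in dividing cells (10). Leiden resolution 2 gave 3 in dividing cells (254), and a gate on each cell's markers, which left 15% of gated cells near its limit, gave 0 in early, 1 in pachytene-like and 5 in dividing cells (63, 331 and 477). Counting only members above the somatic-like level left 1, 0, 4 and 6 calls in early, pachytene-like, dividing and elongating cells. In round cells it left 2 higher (Rsph1 and Dnah17, at only 1.82 and 1.72 times the highest comparison class) and 4 lower. That level was read for the members only, so no share of all genes stands beside these counts. The step was chosen after seeing the data. The stage difference had 1 call without the library term. Omitting 1 library at a time, with the lone library assumed to vary like the other diet's, gave 2 to 8 in early (2 without HFD 2, 8 without ND 1), 0 to 4 in pachytene-like (0 without ND 1 or ND 2, 2 without HFD 2), 7 to 14 in dividing, 0 to 17 in round, 2 to 14 in elongating cells and 1 to 5 in the stage difference, with 63 to 761, 0 to 331, 577 to 1714, 18 to 2001, 161 to 1408 and 164 to 474 of all genes called. Among the 68 member calls, the ratio changed sign with equal cluster shares in the whole testis for Smcp (0.045), Oaz3 (0.062) and Tekt5 (0.005). Under the gate it did so in early cells for Smcp (0.017). With tail genes kept in clustering it did so in dividing cells for Spag6 (0.017), Spag4 (0.002), Smcp (0.117) and Spata18 (0.025). Members that were not called could change sign too, such as Odf1 in the whole testis with equal cluster shares (0.082). Where a fit with edgeR or DESeq2 called 0 members, 5 to 19 had an unadjusted p under 0.05. No share of all genes at that limit stands beside these counts. Causes were not tested. Of 810 comparisons of 68 member calls with an alternative, 574 kept the call, 228 kept the direction and lost it, and 8 changed sign. In every alternative run for them 3 calls held: Odf3 and Rsph1 in elongating cells, and Tekt3 in the stage difference. The stage difference was run with fewer alternatives: equal cluster shares, no library term and the omission of each library. Whether libraries of the same number were prepared together is not given in the sources used here. Correlations of 0.0139 to 0.0869 over all genes cannot settle it. A replicate block gave 25, 5, 6, 9, 8 and 14 calls in the whole testis, early, pachytene-like, dividing, round and elongating cells. Over all genes it called 10113, 440, 841, 810, 568 and 1328, against 8766, 261, 435, 1093, 321 and 880 without it. Depth limits rare members: Dnah2 in elongating cells had as few as 97 UMIs in a library, and SEs ran from 0.030 to 0.14 there.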
